A study of Mus musculus with 4 samples.

Results

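The BCL2 family genes described here are Bcl2, Bcl2l1, Bcl2l2, Mcl1, Bax, Bak1, Bid, Bad, Bcl2l11 and Bnip3l, taken by gene symbol from a matrix of 24421 symbols. All 10 were in the matrix and all 10 had counts. Of these, 9 passed the filter on low counts and were tested among 9150 genes, and Bcl2l11 was below it. The samples were 4 bulk libraries of B16F10, a melanoma line of C57BL/6 mice, grown in DMEM with 10% FBS. Cells of 2 libraries (shControl 1 and 2) carried a lentiviral control vector, listed by the study as empty, and cells of 2 libraries (shLmna 1 and 2) carried a short hairpin RNA against Lmna, the gene of the nuclear lamina proteins lamin A and lamin C. Both groups were selected with puromycin at 2.5 µg/ml, and RNA was profiled by MARS-seq, which primes at the poly(A) tail and counts the 3′ ends of transcripts. The knockdown rested on 1 hairpin in transduced and selected cells, and the control vector carried no hairpin, so the groups also differ in having one at all. The study asked how reduced lamin A/C alters migration, growth and lung metastasis of cancer cells. As part of that it compared the transcriptomes of these cells. Here the comparison is described for the genes that set the threshold for mitochondrial cell death.

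BCL2 family proteins meet at the outer mitochondrial membrane. The anti-apoptotic members (Bcl2, Bcl2l1, Bcl2l2 and Mcl1) bind and hold back the effectors Bax and Bak1, which otherwise assemble into pores that release cytochrome c. The BH3-only members (Bid, Bad and Bcl2l11) carry death signals to them, by occupying the anti-apoptotic members or by activating the effectors. Bnip3l, also called Nix, is a related outer-membrane protein best known as a receptor that delivers mitochondria to autophagosomes. In melanoma, Mcl1 and Bcl2l1 are well-known survival factors.

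Each library counted only the 3′ end of a transcript, so the bases before the annotated cleavage site are shown for the 2 genes that passed the test, Bnip3l and Bak1, and for Bnip3, the closest relative of Bnip3l. These are the last 30 bases of the annotated transcripts, on the sense strand, and capitals mark the polyadenylation signal. Bnip3l carries the variant signal ATTAAA, which begins 21 bases before the end, and Bak1 carries AATAAA, which begins 25 bases before it. In Bnip3 neither was found in these 30 bases. AATAAA was present in 47.6% of 23350 transcripts examined in this way, and ATTAAA without AATAAA in 11.3%.
Bnip3l: ttttgtgccATTAAAgctctcacaaaacct
Bak1: ctggaAATAAActgtgcaatgcccccaaca
Bnip3: tcattcagtaaagtatttttgtaagaaatt

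Bnip3l lies on chromosome 14 at chr14:66985239-67008877, on the minus strand of GRCm38 (mm10), and its annotated transcript has 6 exons. Bak1 lies at chr17:27019810-27029009 and Bax at chr7:45461697-45466898, both on the minus strand. The counted 3′ windows of Bnip3l and Bak1 overlapped no other annotated gene. That of Bax shared 192 bases with Gm45808 on the same strand, and other genes hold 19.5% of its 31-base words, so the Bax counts are less certain.

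The promoters of the effectors are shown because Bak1 passed the test and Bax did not. RefSeq promoter sequences (GRCm38.p6, 250 bases before to 50 after the gene start) were found for 9 of the 10 genes, all but Bnip3l. Both strands were searched for the CCAAT box (the letters CCAAT, present in 37.4% of all 32851 promoters), the TATA box (the letters TATAAA, in 13.6%), the E-box (the letters CACGTG, in 7.15%) and the GC box (the letters GGGCGG, in 35.7%). None of these contains another, and capitals mark the matches. The Bax promoter, chr7:45466849-45467148, held 3 GC boxes and 2 E-boxes, with 19 CpG sites and a GC content of 57.3%. The Bak1 promoter, chr17:27028578-27028877, held none of the 4 motifs, with 11 CpG sites and a GC content of 58.3%. The 2 windows are not placed alike: that of Bax spans the start of the GENCODE gene interval given above, while that of Bak1, set by the RefSeq start, lies wholly inside the interval, downstream of its start.
Bax promoter, minus strand: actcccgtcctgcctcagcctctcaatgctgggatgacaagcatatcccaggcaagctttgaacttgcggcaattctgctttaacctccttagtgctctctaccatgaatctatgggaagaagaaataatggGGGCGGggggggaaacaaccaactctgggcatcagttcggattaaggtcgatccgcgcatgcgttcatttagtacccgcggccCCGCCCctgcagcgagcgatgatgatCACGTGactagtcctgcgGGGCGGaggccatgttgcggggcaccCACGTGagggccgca
Bak1 promoter, minus strand: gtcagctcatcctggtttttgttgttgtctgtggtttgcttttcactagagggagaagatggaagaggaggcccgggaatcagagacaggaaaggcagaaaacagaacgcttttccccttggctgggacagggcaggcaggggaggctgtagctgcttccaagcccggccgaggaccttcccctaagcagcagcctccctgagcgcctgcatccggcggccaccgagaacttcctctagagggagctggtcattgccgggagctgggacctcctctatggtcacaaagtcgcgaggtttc

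Library totals ran from 2494880 to 3808843 counts, and the BCL2 family genes together took 2989 to 4552 of them. Values are given below as CPM (counts scaled to the library total) with TMM factors, where 3 counts correspond to 0.803 to 1.19 CPM, or as raw counts. Lmna, the target of the hairpin, stood at 875 and 719 CPM in shControl 1 and 2 and at 130.9 and 130.8 CPM in shLmna 1 and 2 (log2 fold change −2.61, SE 0.142, edgeR adjusted p = 7.93e-06). Melanocyte markers were abundant in every library, with a summed level of 20766 to 25513 CPM over 8 genes, although Tyr had at most 7 counts. Of the markers, Sox10 was lower in shLmna and Pmel and Mlana were higher (edgeR adjusted p = 0.00161, 0.0258 and 0.00510). Markers of fibroblasts, endothelial cells, leukocytes and epithelial cells summed to at most 16.4 CPM per list, and Dcn, Cdh5, Kdr, Ptprc, Cd3e and Epcam had no count. Their part in the results below was not tested.

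Of the 9 tested BCL2 family genes, Bnip3l rose in shLmna cells and Bak1 fell, and the other 7 did not pass. The anti-apoptotic genes were among those that did not pass, with log2 fold changes from −0.28 to 0.21. With edgeR's quasi-likelihood test and an adjusted p under 0.05, 1 of the 9 was higher, against 5.48% of all tested genes, and 1 was lower, against 9.74%. With a fold change over 2 and a mean normalized count over 5 required as well, 1 gene (Bnip3l) was called higher, against 1.76% of tested genes, and 0 lower, against 5.88% (7.64% of tested genes in either direction). At an unadjusted p under 0.05 the count was 3, the third being Bid, against 30.1% of all tested genes, which is near the share in the family. The 2 libraries of each group did not overlap for 5 of the 9 genes, 3 lower and 2 higher in shLmna. That was also the case for 60.1% of all tested genes, so the lack of overlap alone does not set the family apart. The median log2 fold change of the 9 was 0.05, beside −0.00107 for all tested genes.

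**Figure D1:**
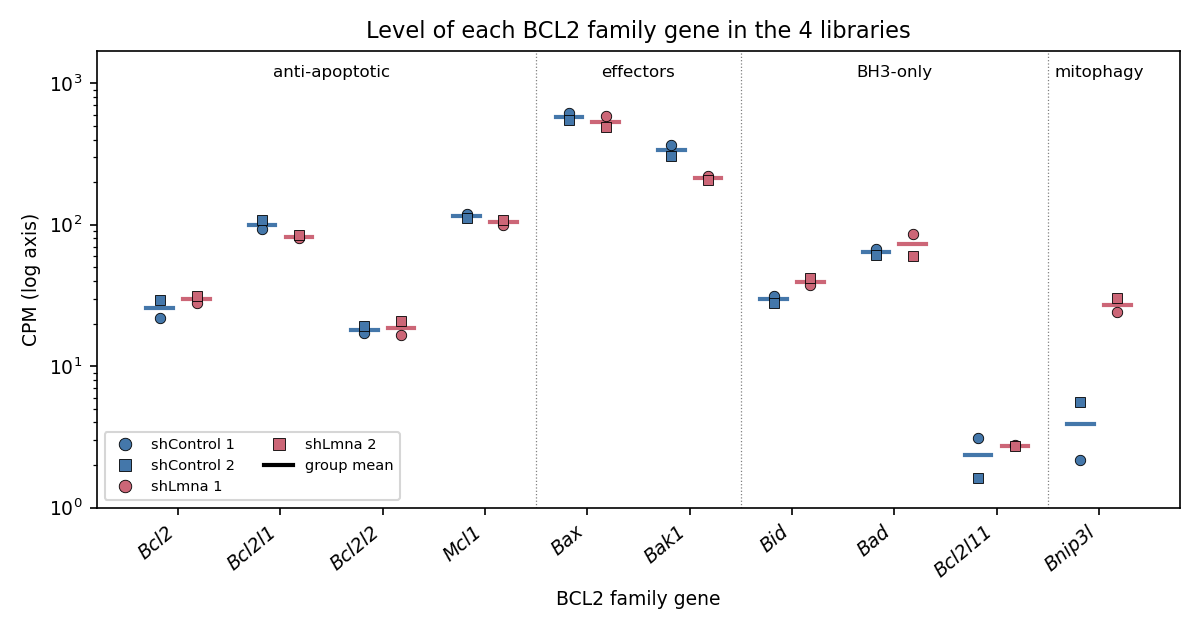
The level of each BCL2 family gene in CPM (log axis) in shControl (blue) and shLmna (red) libraries, with circles for replicate 1, squares for replicate 2 and bars for the group means. The shLmna libraries lie clear above the shControl ones for Bnip3l and clear below them for Bak1.

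Bnip3l changed most in the family. Raw counts of 7 and 21 in shControl 1 and 2 stood against 61 and 111 in shLmna 1 and 2. These equal 2.17 and 5.62 CPM in shControl and 24.1 and 30.2 CPM in shLmna. The groups were thus far apart, and the lower shLmna library stood above the higher shControl library even in raw counts, despite being the shallowest of the 4. The log2 fold change was 2.77 (SE 0.361, 95% interval 1.96 to 3.57), a 6.81-fold rise (interval 3.89 to 11.9), with an edgeR adjusted p of 0.000835. In bulk RNA, more cells with a transcript and more of it per cell cannot be told apart. The shControl mean of 3.90 ± 2.44 CPM (SD, n = 2) rests on 28 counts, and the log2 fold change was 2.28 without shControl 1 and 3.63 without shControl 2. In the authors' batch-corrected log2 values it was 0.53 and still passed (limma adjusted p = 0.00172). Lmna and Bnip3 also had smaller log2 fold changes on that scale (−1.54 and −0.49), so its values are not comparable in size with those of edgeR.

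Bnip3, the relative of Bnip3l and likewise a mitophagy receptor, moved the other way. It had 40.6 and 47.7 CPM in shControl and 10.3 and 12.0 CPM in shLmna. Both shLmna libraries stood well below both shControl libraries, and the log2 fold change was −1.97 (SE 0.222, edgeR adjusted p = 0.000356). The count ratio of Bnip3l to Bnip3 was 0.0534 and 0.118 in shControl 1 and 2 and 2.35 and 2.52 in shLmna 1 and 2. Bnip3 was therefore the more counted of the pair in control cells and Bnip3l in knockdown cells. The 3′ ends of both are poor in G and C (39.0% for Bnip3l and 35.2% for Bnip3, beside a median of 46.9% over tested genes), and with a correction for GC content the log2 fold change of Bnip3l was 2.79 and that of Bnip3 was −1.35, smaller than without it but still past the threshold (edgeR adjusted p = 0.00224). The counted window of Bnip3 shares 342 bases with Gm45507 on the opposite strand, and whether counting used strand is not stated.

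The effectors were the most counted part of the family. Bax stood at 615 and 548 CPM in shControl 1 and 2 and at 584 and 488 CPM in shLmna 1 and 2. The ranges overlapped, and the log2 fold change of −0.12 did not pass (95% interval −0.42 to 0.18, edgeR adjusted p = 0.595).

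Bak1, the effector resident on the mitochondrial membrane, fell. Its counts were 1176 and 1145 in the controls and 563 and 756 in the knockdown libraries, or 364 and 307 CPM against 223 and 206 CPM. Neither shLmna library reached the lower shControl library. The log2 fold change was −0.65 (SE 0.133, 95% interval −0.94 to −0.35), and the level fell by 36.1%, with an edgeR adjusted p of 0.0104. The fall is smaller than the 2-fold limit, so Bak1 was not called by the 3 limits together. It no longer passed without shLmna 1 (edgeR adjusted p = 0.0644) or without shLmna 2 (0.141), with log2 fold changes of −0.70 and −0.58.

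The ratio of Bak1 to Bax counts within each library does not depend on scaling. It was 0.592 and 0.560 in shControl 1 and 2 and 0.381 and 0.422 in shLmna 1 and 2, with no overlap. Bak1 therefore made up a smaller part of the effector counts in knockdown cells. The ratio of Mcl1 to Bak1, a pair known to bind each other, was 0.329 and 0.364 in shControl and 0.449 and 0.522 in shLmna. The ratio of Bcl2l1 to Bak1 was 0.256 and 0.350 in shControl and 0.361 and 0.410 in shLmna, and these ranges lie close together. No test was made on the ratios, since 2 libraries against 2 cannot go below p = 0.333 in a two-sided exact permutation test.

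**Figure D2:**
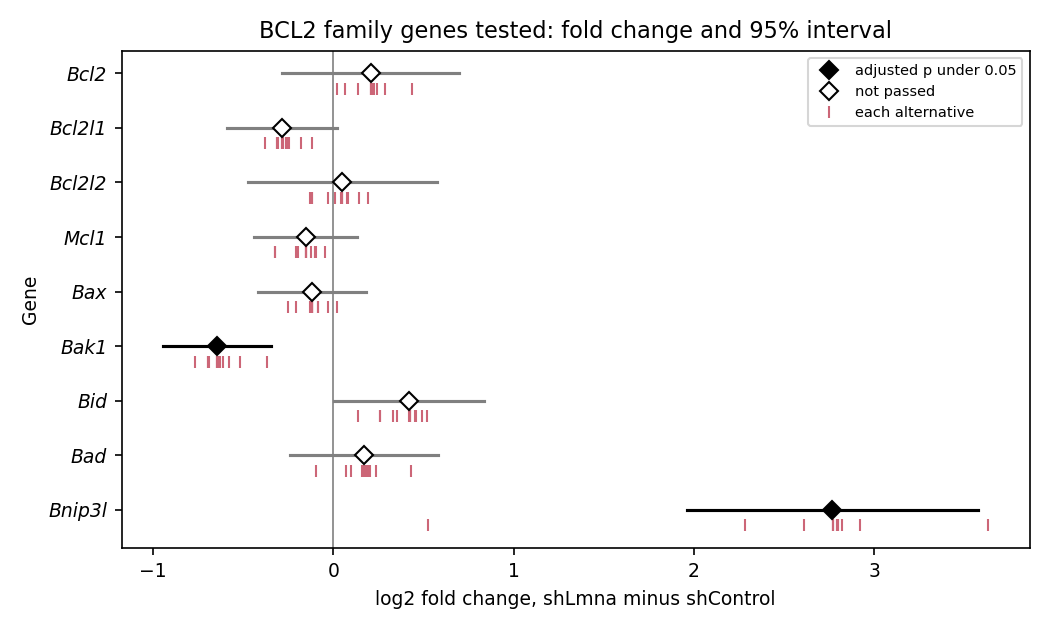
The log2 fold change (shLmna minus shControl) of the 9 tested BCL2 family genes, with diamonds and 95% intervals from edgeR (filled where the adjusted p is under 0.05) and ticks for each of 13 alternative analyses. Bnip3l at 2.77 and Bak1 at −0.65 are the filled diamonds, and the low tick of Bnip3l at 0.53 is from the batch-corrected values.

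Among the anti-apoptotic genes, Mcl1 and Bcl2l1 were the more counted. Mcl1, a short-lived guard of Bak1, stood at 119.9 and 111.6 CPM in shControl and at 100.1 and 107.6 CPM in shLmna. The shLmna values lie just below the shControl values, and the log2 fold change of −0.15 did not pass (95% interval −0.44 to 0.13, edgeR adjusted p = 0.460). Bcl2l1, the gene of Bcl-xL, stood at 93.2 and 107.4 CPM in shControl and at 80.3 and 84.5 CPM in shLmna. These groups do not overlap either, but the log2 fold change of −0.28 missed the threshold (95% interval −0.59 to 0.02, edgeR adjusted p = 0.199). In the batch-corrected values Bcl2l1 passed at a smaller log2 fold change of −0.12 (limma adjusted p = 0.0220). Its SE was 0.0217 there and 0.137 in the main fit. The limma fit took no account of the batch correction, so its p-values, here and for other genes, may be too small.

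Bcl2, the founding member of the family, was lower than Mcl1 and Bcl2l1 in every library. It stood at 22.0 and 29.5 CPM in shControl and at 28.1 and 31.3 CPM in shLmna, which overlap (log2 fold change 0.21, 95% interval −0.28 to 0.70, edgeR adjusted p = 0.572). Bcl2l2, the gene of Bcl-w, stood at 17.0 and 19.3 CPM in shControl and at 16.6 and 20.7 CPM in shLmna. The shLmna values enclose the shControl values, and the log2 fold change was 0.05 (95% interval −0.48 to 0.57, edgeR adjusted p = 0.919). No alternative analysis passed either gene.

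Of the BH3-only genes, Bid came nearest to the threshold. Bid, which caspase-8 cleaves to link death receptors to mitochondria, stood at 31.6 and 27.8 CPM in shControl and at 37.6 and 41.7 CPM in shLmna. The groups did not overlap, with a log2 fold change of 0.42 (SE 0.186, 95% interval 0.0054 to 0.84), an edgeR unadjusted p of 0.0476 and an adjusted p of 0.162. It passed in the batch-corrected values, at a log2 fold change of 0.13 (limma adjusted p = 0.0241). The counted window of Bid shares 89 bases with Bcl2l13 on the opposite strand.

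Bad, which phosphorylation by survival kinases keeps away from mitochondria, stood at 67.5 and 61.6 CPM in shControl and at 86.2 and 60.2 CPM in shLmna. The shLmna libraries thus lay on either side of the controls, and the log2 fold change of 0.17 did not pass (95% interval −0.24 to 0.58, edgeR adjusted p = 0.580). Its sign depended on shLmna 1, without which it was −0.09. Bcl2l11, the gene of Bim, a strong activator of Bax and Bak1, was counted 10 and 6 times in the controls and 7 and 10 times after knockdown, or 1.61 to 3.10 CPM. The ratio of its summed level in shLmna to that in shControl was 1.19, with a counting interval of 0.567 to 2.52. A difference was not detectable with so few counts.

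The order of the counts can be read within a library because a 3′ count is not scaled by transcript length. Counts also depend on whether transcript ends lie in the counted windows and are shared with other genes. The order of the counts therefore need not be that of the transcripts. In shControl it ran Bax, Bak1, Mcl1, Bcl2l1, Bad, Bid, Bcl2, Bcl2l2, Bnip3l and Bcl2l11, by mean CPM. Bid and Bcl2 overlapped in shControl, as did Bnip3l and Bcl2l11. The other neighbours did not overlap there. In shLmna the order of the first 6 genes was the same, although Bad now overlapped Bcl2l1. Bnip3l had by then moved up to the range of Bcl2, which it overlapped (27.2 ± 4.33 and 29.7 ± 2.30 CPM, SD, n = 2), and stood above Bcl2l2.

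**Figure D3:**
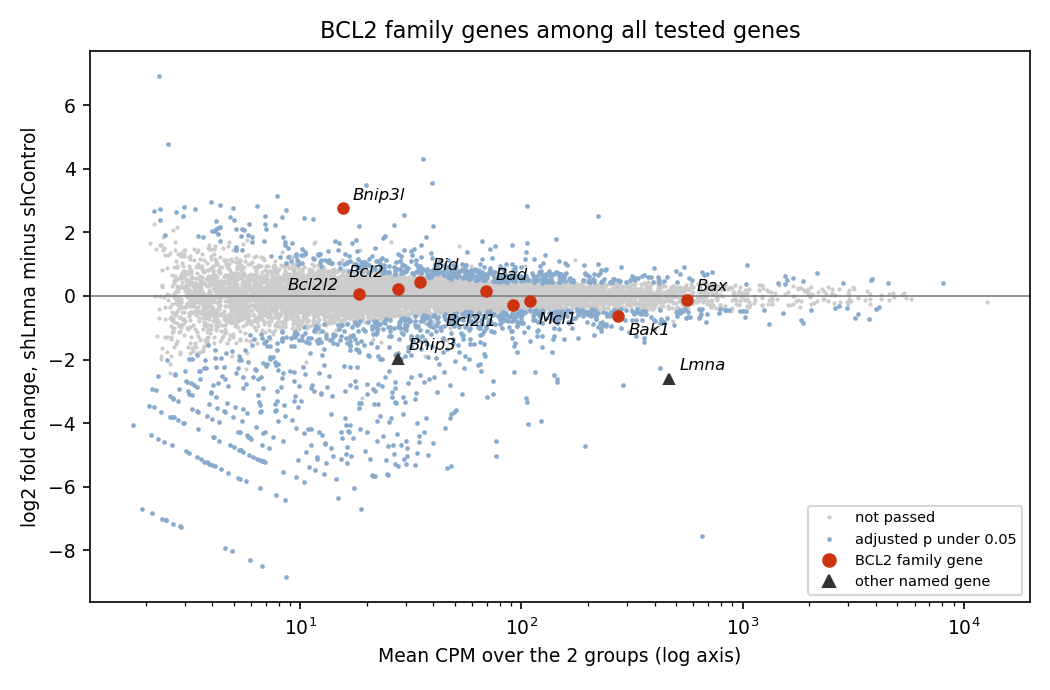
The log2 fold change (shLmna minus shControl) against mean CPM (log axis) of all 9150 tested genes, with BCL2 family genes as red circles, Bnip3 and Lmna as triangles and genes with an adjusted p under 0.05 in blue. Of the family, Bnip3l stands far from 0, Bak1 lies at the edge of the blue points, and the others lie in the grey cloud.

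The balance of the functional groups was described by the share of the family's counts each took in a library. The effectors Bax and Bak1 took 73.3% and 70.1% in shControl 1 and 2 (exact binomial intervals 72.0% to 74.6% and 68.8% to 71.4%) and 68.2% and 64.7% in shLmna 1 and 2 (66.5% to 69.9% and 63.2% to 66.2%). The anti-apoptotic genes took 18.9% and 22.0% in shControl and 19.0% and 22.8% in shLmna, and these ranges overlap. The BH3-only genes took 7.65% and 7.47% in shControl and 10.7% and 9.75% in shLmna. The share of Bnip3l was 0.162% and 0.461% in shControl and 2.04% and 2.82% in shLmna. The intervals cover counting error only.

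Thus the effector share was lower in both knockdown libraries and the BH3-only and Bnip3l shares were higher, while the anti-apoptotic share differed as much within as between groups. Of the effectors, Bak1 had passed and Bax had not, and neither Bid nor Bad had passed. The shares therefore do not show that a whole functional group shifted. Shares of 1 total are not independent of each other. The count ratio of anti-apoptotic genes to effectors and BH3-only genes together was 0.233 and 0.283 in shControl and 0.241 and 0.306 in shLmna, which overlap.

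**Figure D4:**
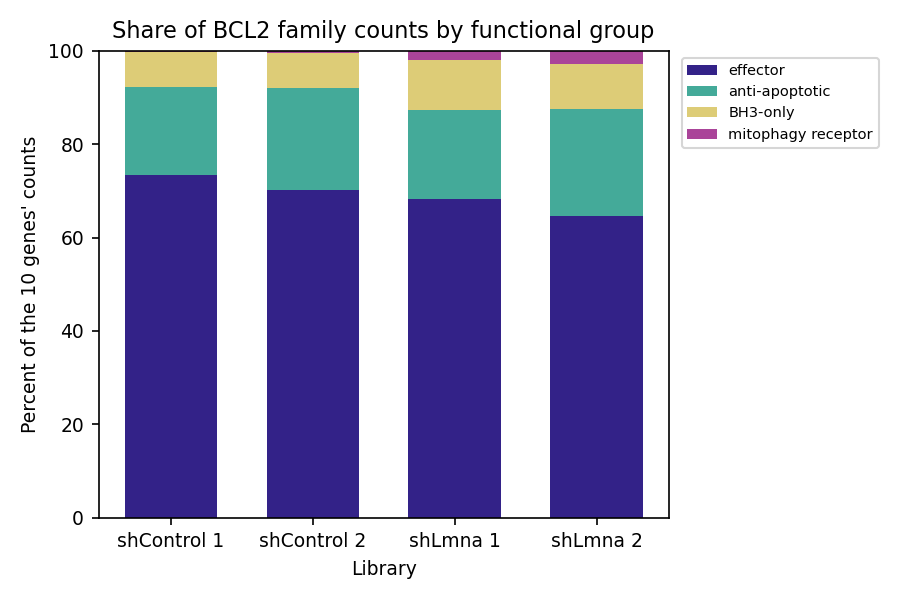
The percent of the 10 BCL2 family genes' counts taken by effectors, anti-apoptotic genes, BH3-only genes and the mitophagy receptor Bnip3l, as stacked bars for each of the 4 libraries. The effector part is 70.1% or more in shControl and 68.2% or less in shLmna.

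Of 16 other genes of the wider family, 11 had counts and 6 were tested. Bnip3, described above, was the 1 that passed, as lower, against 9.74% of all tested genes. Neither this list nor those below were tested as sets. For Bbc3, the gene of Puma, the controls held 51 and 61 counts and the knockdown libraries 43 and 54 (log2 fold change −0.03, edgeR adjusted p = 0.956). Bmf, a BH3-only gene, was at 3 and 7 counts in control libraries and at 8 and 14 in knockdown libraries (log2 fold change 1.28, edgeR adjusted p = 0.165), and its ratio of 2.47 had a counting interval of 1.12 to 5.85.

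Bok, a relative of Bax and Bak1, was at 11 and 14 counts in the controls and 7 and 11 in the knockdown (log2 fold change −0.30, edgeR adjusted p = 0.705). Bcl2l12 (−0.49, adjusted p = 0.237) and Bcl2l13 (0.20, adjusted p = 0.722) did not pass in edgeR either. The remaining 5 genes with counts were Bik, Pmaip1 (the gene of Noxa), Hrk, Bcl2l10 and Bcl2l15, with at most 3 counts in any library. Bcl2a1a to Bcl2a1d and Bcl2l14 had no count, so no difference in them could be measured. Other genes hold 79.6%, 88.8%, 30.9% and 89.1% of the 31-base words of the 3′ ends of Bcl2a1a, Bcl2a1b, Bcl2a1c and Bcl2a1d. The lack of counts for these genes is therefore uncertain.

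Downstream of the pores, 13 of 15 genes of the mitochondrial apoptosis machinery were tested (median log2 fold change 0.13). Of these, 1 rose, against 5.48% of all tested genes, and 0 fell, against 9.74%. Htra2, a mitochondrial protease that is released with cytochrome c, was at 1164 and 1241 counts in control libraries and at 1310 and 1686 in knockdown libraries (log2 fold change 0.50, edgeR adjusted p = 0.0261). Its counted window shares 635 bases with Loxl3 on the opposite strand, and it did not pass without shLmna 1 (edgeR adjusted p = 0.225) or shLmna 2 (0.101). Apaf1, the scaffold of the apoptosome, lay just outside (log2 fold change 0.62, edgeR adjusted p = 0.0508), and Casp9 did not pass (−0.45, edgeR adjusted p = 0.400).

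Among inhibitors of apoptosis, 4 of 9 genes were tested, and 1 fell, against 9.74% of all tested genes. Xiap, which blocks caspases directly, was at 47 and 44 counts in the controls and 1 in each shLmna library. Its summed level was 40.5-fold lower in shLmna, with a counting interval of 10.9 to 339 (edgeR adjusted p = 0.000205). It lies at chrX:42059679-42109656, and its 3′ end has a GC content of 30.8%. The fitted log2 fold change was −5.19, and −3.78 with the correction for GC content (edgeR adjusted p = 0.00510). Birc2 (log2 fold change −0.83, edgeR adjusted p = 0.0860) did not pass, nor did Birc5, the gene of survivin (0.04, edgeR adjusted p = 0.848).

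Upstream, 7 of 9 genes of the death receptor arm were tested, and 1 rose, against 5.48% of all tested genes. Fadd, the adaptor that brings caspase-8 to death receptors, was at 17 and 23 counts in the controls and 43 in each shLmna library (log2 fold change 1.30, SE 0.320, edgeR adjusted p = 0.0234). It did not pass with DESeq2 (adjusted p = 0.195) or, in edgeR, without shLmna 1 (adjusted p = 0.211) or shLmna 2 (0.0670). For Casp8, which cleaves Bid, the log2 fold change was −0.06 and did not pass (edgeR adjusted p = 0.838).

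Of 15 binders and turnover factors of BCL2 proteins, 11 were tested and 1 fell, against 9.74% of all tested genes. Tpt1, which binds Mcl1, was at 2738 and 3555 counts in control libraries and at 1689 and 2515 in knockdown libraries (log2 fold change −0.41, edgeR adjusted p = 0.0410). Its adjusted p was 0.0530 with library totals in place of TMM, 0.103 without shControl 2, 0.272 without shLmna 1 and 0.216 without shLmna 2, all in edgeR. Its counts are uncertain, since other genes hold 50.4% of the 31-base words of its counted window.

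In the mitophagy list, which does not hold Bnip3l, 13 of 14 genes were tested, with a median log2 fold change of 0.00088. Of these, 2 fell, against 9.74% of all tested genes, and 1 rose, against 5.48%. Bnip3 and Fundc1, both receptors on the outer membrane, fell. The controls held 94 and 95 counts of Fundc1 and the knockdown libraries 23 and 30 (log2 fold change −1.66, edgeR adjusted p = 0.00164). Its 3′ end has a GC content of 32.2%, and with a correction for GC content it did not pass (log2 fold change −0.45, edgeR adjusted p = 0.332).

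Optn, an adaptor of ubiquitin-dependent mitophagy, was at 93 and 117 counts in control libraries and at 109 and 176 in knockdown libraries (log2 fold change 0.60, edgeR adjusted p = 0.0478). It passed in 6 of 13 alternatives and not with DESeq2, and it did not pass without shControl 1, shLmna 1 or shLmna 2 (edgeR adjusted p = 0.0764, 0.139 and 0.254). Pink1 (log2 fold change 0.26, edgeR adjusted p = 0.443), the kinase of that route, did not pass. Counts of Park2, its ubiquitin ligase partner, were 0 in all 4 libraries.

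**Figure D5:**
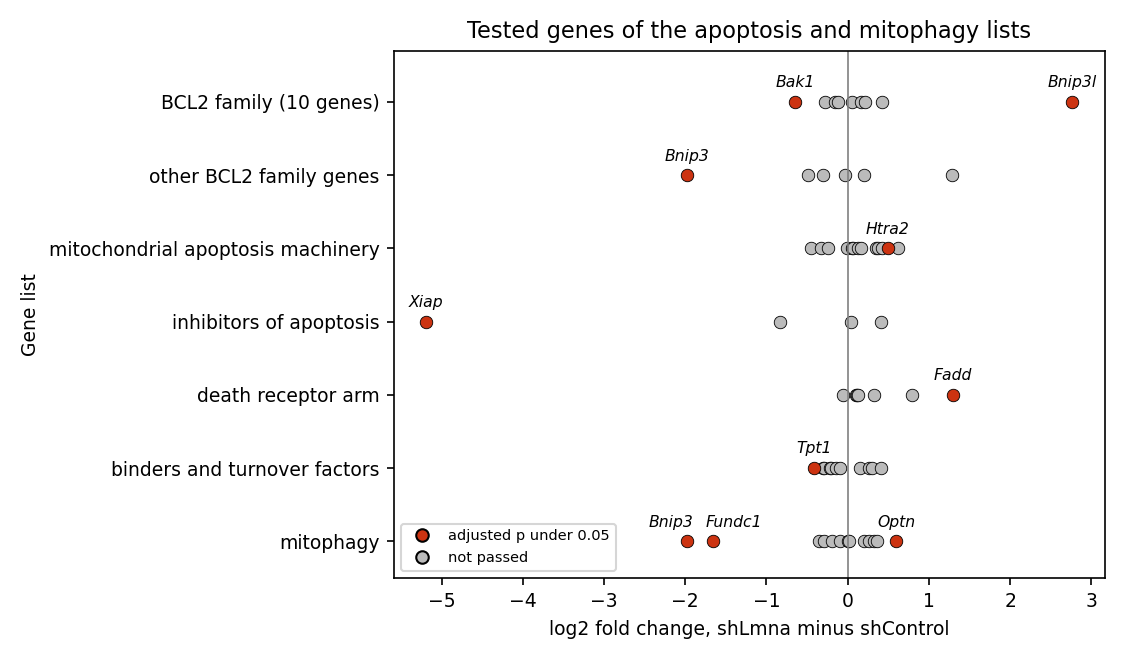
The log2 fold change (shLmna minus shControl) of the tested genes in each gene list, with red points for genes whose adjusted p is under 0.05 and grey for the others. Bnip3l, Bnip3, Fundc1, Xiap and Fadd lie more than 1 log2 unit from 0 and passed, and Bmf, in grey at 1.28, did not pass; the fitted value of Xiap rests on 2 counts in shLmna.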

How the data were processed

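RNA of 4 B16F10 libraries (2 shControl, 2 shLmna, plate 3) was profiled by bulk MARS-seq. Per the study's methods and the submitters' processing notes, reads were trimmed with Cutadapt, aligned to mm10 with STAR 2.4.2a and counted with HTSeq in the UTAP pipeline, over the final 1000 bases of each RefSeq gene plus 100 bases past its end. The authors deposited raw counts per gene symbol, the input of the main test. The study's methods say that duplicates of a molecular identifier were marked before counting, but not which deposited table holds the counts without them. Another deposited table gave, as a signal for each library, counts over a DESeq2 size factor, and the authors' p-values, which were not used. Each library's signal was divided by its smallest positive value to give recovered counts. Of these, 100% came out whole (tolerance 0.01). Summed raw counts were 1.08 to 1.09 times the summed recovered counts. The last table held normalized log2 values corrected by the authors with ComBat for batches that are not named. Groups were taken from sample titles.

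For the main test, counts were fitted in edgeR 4.0.16 (R 4.3.3) with glmQLFit and glmQLFTest, with TMM scaling, the default filterByExpr filter and group as the one term, two-sided and with Benjamini-Hochberg adjustment over 9150 genes. A gene was called at an adjusted p under 0.05, a log2 fold change over 1 in size and a mean normalized count over 5, the limits of the study. The test was checked on simulated data. Intervals are 95% intervals and, for shares, exact binomial. The 13 alternatives used RLE size factors, library totals, DESeq2 1.42.0, no filter, recovered counts, limma 3.58.1 on the ComBat values, a GC correction, a replicate block, both together, or each library left out. Replicates differed by more than sampling noise (chi-square per degree of freedom 6.96 in shControl and 3.91 in shLmna). As separate cultures are not stated, p-values measure spread between libraries.

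The members and gene lists were chosen with earlier results of these data known. Named genes are the 10 members, Lmna, listed genes with an adjusted p under 0.05 and other BCL2 family genes with counts. Cell type markers came from a list of their own, and listed genes outside that rule (Apaf1, Casp8, Casp9, Birc2, Birc5, Pink1, Park2, Bcl2a1a to Bcl2a1d, Bcl2l14) were added after their values were seen. Not every listed gene is reported here. Positions, GC content and transcript ends are from the GRCm38 annotation (GENCODE M21).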

Additional observations from a re-analysis of the deposited data

How the results depend on the processing

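Under the 13 alternatives, Bnip3l was higher and passed in all, and Bak1 was lower in all and passed in 11. In 4 of the 13, 1 library was left out, so that its group held 1 library, assumed to vary like those of the other group. On the ComBat-corrected log2 values fold changes are smaller, so the same fold change limit is stricter there. With that limit and none on the mean count, 28 genes over all genes were called lower and 2 higher. With that limit 0 members were called lower and 0 higher. By adjusted p alone, Bak1 and Bcl2l1 passed there as lower and Bnip3l and Bid as higher. The share of all genes passing there by adjusted p alone is not given. These passes therefore do not set the family apart from other genes. The limma fit took no account of the batch correction, so its p-values may be too small. Bnip3 and Xiap were at −0.49 and −0.50 there and passed. Over all genes, 66 were called higher with DESeq2, 283 with the GC correction and 300 with the GC correction and the replicate block, and the part of calls that were lower was 77% in the main analysis, 85.6% with DESeq2, 93.3% with ComBat values, 63.3% with the GC correction and 62.6% with GC correction and block. With 1 library left out, 60 to 232 genes were called higher and 387 to 750 lower by the 3 limits together. By the same limits, 1 member was called higher and 0 lower in each of these 4 fits. By adjusted p alone, 0 to 1 members passed as lower, and the share of all genes passing in that way is not given. That last number therefore cannot be set beside the counts over all genes. Values that changed sign were those of Bcl2l2 (−0.029 without shControl 1, −0.12 without shLmna 2, −0.12 with the GC correction and −0.13 with GC correction and block), Bax (0.018 without shLmna 2) and Bad (−0.094 without shLmna 1), none of which passed. The median log2 fold change of the 9 tested members, 0.05 in the main analysis, also changed sign. It was −0.029 without shControl 1, −0.094 without shLmna 1 and −0.12 with the GC correction, with or without the block. The median over all tested genes moved as well, from −0.00107 in the main analysis to −0.0729 with the GC correction and −0.0707 with GC correction and block. It was 0.00418 without shControl 1 and −0.00435 without shLmna 1. With 1 library left out, Bcl2l2 ran from −0.12 to 0.19, Bax from −0.25 to 0.018 and Bad from −0.094 to 0.43. The cause was not tested. No pairing of the libraries by replicate number was seen (correlation of deviations 0.0122 across 9150 genes, which are not independent replicates). With 2 pairs this cannot settle whether the libraries were paired. With a replicate block, Bnip3l was at 2.80 and Bak1 at −0.64, no member's call changed, and 605 genes were called lower and 209 higher.

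Few counts leave wide intervals for Bcl2l11 and Bmf, and Bik, Pmaip1 and Hrk had too few counts to be tested. Whether depth or the placement of the counted 3′ windows limits them was not tested. With 2 libraries a group from cells transduced with 1 hairpin, what else differed between the transduced lines and what the knockdown did cannot be told apart. RNA levels do not give protein levels, and BCL2 family proteins are also set by turnover and phosphorylation.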
